A study of Mus musculus with 401 samples.

Results

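The kinetochore is the protein assembly that joins each chromosome to the spindle, and its genes were followed here in mouse oocytes and in the cumulus cells around them. The 35 genes described were taken by symbol from a list of kinetochore and centromere proteins, chosen with earlier results of these data known. They were matched by Ensembl identifier, and all 35 were present among the 43633 genes of the study. They comprise 16 genes of the inner kinetochore, 15 of the outer kinetochore and 4 genes that load centromeric chromatin or act at meiotic kinetochores.

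The inner kinetochore is built on nucleosomes that hold the histone H3 variant CENP-A (Cenpa) and consists mainly of the constitutive centromere-associated network, the CENP proteins that stay at the centromere through the cell cycle. The outer kinetochore contains the KNL1, MIS12 and NDC80 complexes, which bind microtubules, together with the SKA complex and the large proteins CENP-E and CENP-F. HJURP, MIS18A and OIP5 (MIS18BETA) place new CENP-A, and MEIKIN acts at kinetochores in the first meiotic division. A fully grown oocyte is arrested in prophase of that division and stores transcripts for later use, whereas cumulus cells are somatic granulosa cells, some of which divide.

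Single oocytes at the germinal vesicle (GV) stage, with an intact nucleus, and the pooled cumulus cells of the same complex were profiled by RamDA-seq, a total RNA method for single cells, in B6D2F1 females (C57BL/6 x DBA/2). In the first set, mice were young (2 months), middle (9 months), old (14 months) or on calorie restriction (CR, 9 months), the others being fed ad libitum. In the second set, all fed ad libitum, mice were 2, 4, 9 or 14 months old. Ovulation was boosted with hormones (hyperovulation, by eCG or HyperOva) in every group except the second set's other group of mice at 2 months, which received none. The first set held 2 young, 4 middle, 2 old and 3 CR mouse labels, of which 1 old label stands for 2 pooled animals, and the second held 5 mice at 2 months, 8 at 4, 4 at 9, 5 at 14 and 8 without hyperovulation.

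The libraries held 559305 to 4536690 counts in oocytes and 510029 to 2501005 in cumulus cells. The CR libraries were deeper, with a median of 3578882 counts in oocytes against 2332126 in middle oocytes, and 2019007 against 1091806 in cumulus cells. In 1 complex of a middle mouse, the library labelled oocyte correlated more closely with the median cumulus library (Pearson's r = 0.937 across genes) than with the median oocyte library (0.744), and both libraries of that complex were left out, which left 399. Among 10 oocyte markers, 9 were at 0 in the median cumulus library of both sets, and Gdf9 was at 1.38 and 2.60 CPM (counts relative to the library size). The 10 cumulus markers summed in the median oocyte library to between 2.92% and 5.60% of their level in cumulus cells, with a range over single oocytes of 1.95% to 22.8%. In the median oocyte this share rests mostly on Serpine2 (185 CPM in the first set, 204 in the second) and Nr5a2 (79.8 and 58.8). Inha was at 61.4 and 10.6 CPM and Inhbb at 25.9 and 4.27 in oocytes, against 3096 to 4384 in cumulus cells. In a pool of cumulus cells, fewer cells of one kind and less RNA per cell cannot be told apart.

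At 2 months the members' levels in oocytes ran over a wide range. Levels between genes are given as CPM divided by gene length in kilobases (RPKM), since long genes collect more reads. Dsn1, a subunit of the MIS12 complex, was highest at 74.0 ± 1.78 RPKM (SD, n = 5 mice), with single oocytes between 67.2 and 82.4 and a median of 74.0. Cenpx, a histone-fold protein of the inner kinetochore, came next at 70.9 ± 7.74 RPKM with single oocytes from 50.5 to 97.9, followed by Hjurp, the CENP-A chaperone, at 56.9 ± 7.26 RPKM with single oocytes from 31.4 to 75.6. The ranges of single oocytes overlapped between neighbours in this order. At the other end were Nsl1, another subunit of the MIS12 complex, at 0.569 ± 0.138 RPKM, Cenpi at 1.501 ± 0.208 and Cenpw, the histone-fold partner of CENP-T, at 1.501 ± 0.230, of which the last pair did not differ beyond their spread. Single oocytes lay between 0.160 and 1.35 RPKM for Nsl1, between 0.423 and 2.44 for Cenpi and between 0.726 and 2.33 for Cenpw.

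In cumulus cells of the same mice the order was another. Hjurp led at 104 ± 24.03 RPKM, with single pools from 60.8 to 168, followed by Zwint, the KNL1 partner, at 29.4 ± 6.47 (16 to 48.2) and Ska2, a subunit of the SKA complex, at 17.7 ± 1.036 (9.81 to 24.6). Hjurp lay apart from all other members there, and the pools of Zwint and Ska2 overlapped. The lowest were Meikin, with no count in any of the 24 pools, Cenpw at 1.36 ± 0.554 RPKM (0.286 to 4.74) and Cenpk at 1.47 ± 0.699 (0 to 3.92), which overlapped each other. The rank correlation between the mean levels in oocytes and in cumulus cells was 0.299 across the 35 genes. For a given cell type the order was almost fixed, since the rank correlation of the 2 months group with each of the 8 other groups was between 0.966 and 0.998 in oocytes and between 0.925 and 0.984 in cumulus cells. These correlations are across genes, which share libraries and gene lengths and are not independent replicates.

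How much single oocytes of one age differed depended on the member. Over the 24 oocyte libraries at 2 months, the coefficient of variation (CV) was 5.99% for Dsn1 and 6.32% for Cenpo, where counting error alone gives 4.33% and 5.80%. It was 49.5% for Oip5 and 50.4% for Nsl1, where counting error alone gives 39.7% and 40.1% at a mean of 6.35 and 6.22 counts. Hjurp stood out from both ends, with a CV of 21.9% at a mean of 1003 counts, for which counting error gives 3.16%, whereas Cenpf, the very long outer kinetochore gene, had a CV of 11.4% at 1011 counts. The median CV over members was 17.8% in oocytes and 28.99% in cumulus cells, with 10.3% and 21.1% from counting error. Counting error here treats reads as independent molecules, which without molecular identifiers they need not be.

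The first comparison asks which kinetochore genes are transcript-rich in the oocyte relative to its surrounding somatic cells. Cell type went with preparation, since cumulus lysates were diluted further and reverse transcribed in an adjusted mix. It went with depth too, at a median of 2118731 counts in oocytes and 854936 in cumulus pools at 2 months. The parts of preparation and depth in the ratios cannot be told apart. At 2 months 24 members were higher in oocytes and 9 were lower (edgeR quasi-likelihood test on counts summed per mouse, n = 5 mice, Benjamini-Hochberg adjusted p under 0.05 over 28571 genes). This comparison called 81.0% of all genes tested, 39.5% higher and 41.5% lower, against 94.3% of the members. Inner kinetochore genes had a median log2 fold change of 2.04, with 12 of 16 higher and 2 lower. Outer kinetochore genes had a median of 0.58, with 10 of 15 higher and 5 lower. The median over all genes was -0.07. Among genes over 5 CPM it was positive in each length class, from 0.19 to 1.26, with 48.2% to 61.6% called higher. At 3 to 4 kb, where the median lengths of inner (3822 bases) and outer genes (3354) lie, it was 0.49, close to the outer median.

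The 4 members with the smallest p were all higher in oocytes, and their single libraries did not overlap between the cell types. Cenps, a histone-fold partner of CENP-X, was at 69.2 to 119 CPM in single oocytes (median 99.7) and at 0 to 13.8 in cumulus pools (median 3.26), with means of 101 ± 6.59 and 4.10 ± 1.78 CPM (SD, n = 5 mice). Its log2 fold change was 5.09 ± 0.18 (SE, adjusted p = 3.53e-15). Dsn1 was at 225 to 276 CPM (median 248) against 20.9 to 51.5 (median 33.1), a log2 fold change of 3.36 ± 0.13 (adjusted p = 8.77e-15).

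Cenpn, which binds the CENP-A nucleosome, was at 123 to 179 CPM (median 161) in oocytes and 16.5 to 45.8 (median 31.3) in cumulus cells, with means of 159 ± 10.97 and 30.46 ± 3.33 CPM over mice. Cenpq, of the inner CENP-O group, was at 33.04 to 75.8 CPM (median 56.0) against 3.08 to 16.99 (median 6.78), with means of 56.4 ± 5.61 and 7.89 ± 0.990 CPM. Their log2 fold changes were 2.86 ± 0.12 (adjusted p = 2.10e-14) and 3.29 ± 0.14 (adjusted p = 6.08e-14). The other members among the 12 with the smallest p were Ska1 (3.37), Cenpx (2.86), Cenpo (2.26), Cenpm (2.63), Cenpf (2.09), Mis18a (2.55), Nuf2 (2.53) and Meikin, all higher in oocytes on the log2 scale.

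Meikin was detected in oocytes at 8.16 to 20.5 CPM (median 15.1, mean over mice 14.9 ± 1.52). No count fell in the 24 cumulus pools of the same mice, so that against a floor of 3 counts over the group it was at least 101-fold higher in oocytes. Over all 199 cumulus libraries, 2 held a count of Meikin, both from CR mice.

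Within the protein complexes the ratio was not uniform. Of the MIS12 complex, Dsn1 (3.36) and Mis12 (1.98) were higher in oocytes, and Nsl1 (-2.25 ± 0.18) and Pmf1 (-0.34 ± 0.14) were lower. In single libraries Nsl1 lay at 0.849 to 7.14 CPM in oocytes (median 2.84) and at 11.5 to 32.7 in cumulus pools (median 19.2), with no overlap. Of the SKA complex, Ska1 (3.37) and Ska3 (1.41) were higher and Ska2 (-0.94 ± 0.15) was lower. Each subunit of the NDC80 complex was called higher, and they ran from 2.53 ± 0.17 for Nuf2 through 0.58 for Spc24 and 0.57 for Ndc80 to 0.35 ± 0.15 for Spc25. The calls of Spc25 and Ndc80 were lost with the correction for gene length, at 0.17 for each (adjusted p = 0.232 and 0.261). Both proteins of the KNL1 complex were lower, Knl1 by a log2 fold change of -0.63 and Zwint by -0.32.

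The kinesin CENP-E (Cenpe, 1.72) was higher in oocytes. Of the CENP-A loading genes, Mis18a (2.55) was higher, and Oip5 (-1.98) and Hjurp (-0.40) were lower. Among the inner genes, Cenpi (-1.75 ± 0.16) and Cenpc1 (-0.84 ± 0.15), which encodes the CENP-C scaffold, were the members called lower. Cenpa itself (-0.31 ± 0.15, adjusted p = 0.0639) and Cenpl (0.09 ± 0.18, adjusted p = 0.641) did not pass the test. With the mouse as a replicate block, Cenpa passed (-0.29 ± 0.12, adjusted p = 0.0353) and Zwint did not (-0.29 ± 0.14, adjusted p = 0.0581, against 0.0407 without the block).

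**Figure D1:**
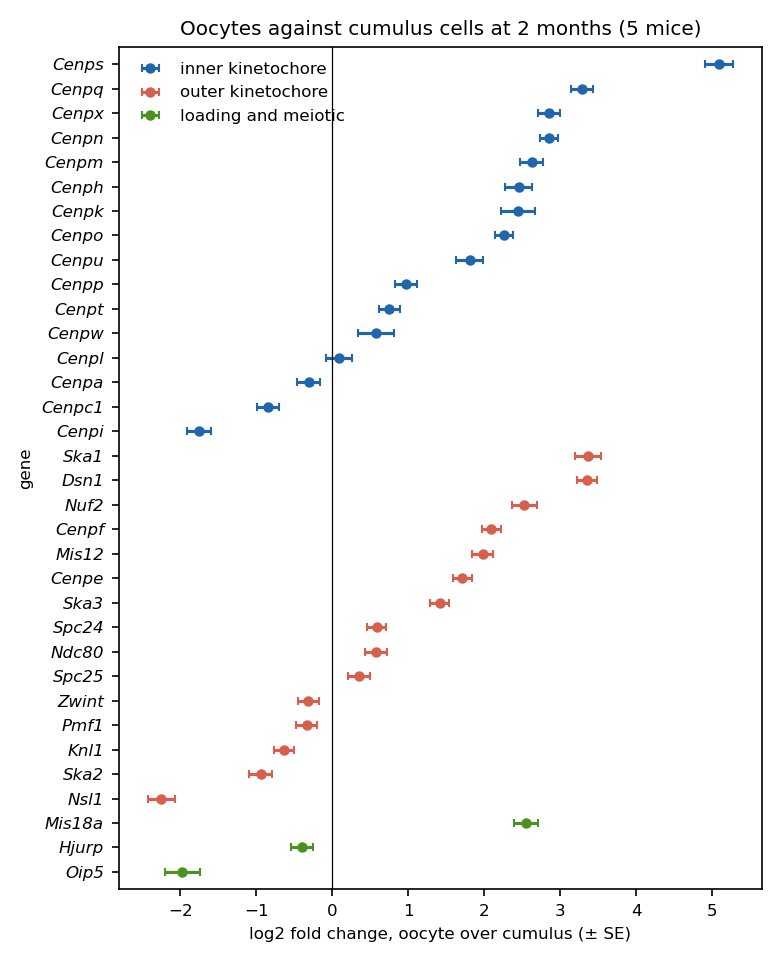
Points give the log2 fold change of oocytes over cumulus cells at 2 months, with bars of 1 standard error, for 34 members in 3 groups (n = 5 mice); Meikin, at 0 in cumulus cells, is not drawn. Cenps lies farthest to the right at 5.09 and Nsl1 farthest to the left at -2.25, and each group has members on both sides of 0.

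The ratio was also fitted in each of the 9 groups of both sets. The fitted log2 ratio was positive in 9 of 9 groups for 23 members, of which 19 passed the test in every group. It was negative in 9 of 9 for 6 (Cenpa, Cenpc1, Cenpi, Nsl1, Oip5 and Ska2), of which 3 (Cenpi, Nsl1 and Oip5) passed in every group, and its sign differed between groups for 6 (Cenpl, Hjurp, Knl1, Pmf1, Spc25 and Zwint). Passing in every group was not counted over all genes, of which 81.0% were called at 2 months alone. Dsn1 varied least, between 3.36 and 3.66 on the log2 scale. Pmf1 was at -0.34 in mice at 2 months with hyperovulation and at 0.21 in those without. Among 21 partner genes of the spindle checkpoint, the chromosomal passenger complex and cohesin protection, 17 were higher in oocytes and 3 lower.

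Gene length was unevenly spread over the called members in this comparison. Of 13 members under 3 kb of exons, 12 were higher in oocytes and 1 lower. Of 16 members from 3 to 6 kb, 8 were higher and 6 lower, and of 6 members of 6 kb or more, 4 were higher and 2 lower. Among all genes over 5 CPM, the median log2 fold change was 0.55 under 1 kb, 1.26 at 1 to 2 kb, 0.98 at 2 to 3 kb and 0.19 over 6 kb, and 52.7%, 61.6%, 58.9% and 48.2% of the genes in these classes were called higher. With each mouse's summed counts of each cell type corrected for the trend with gene length, 22 members were higher and 10 lower. Of all 28571 genes, 10668 were then called higher and 12405 lower. The part of gene length in the ratio was not tested further.

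Reads of 10 members can also belong to a gene whose exons overlap theirs, as with Cenpu and Primpol or Cenpo and Adcy3, and the sources do not say whether strand was used in counting. In 11 members over 40% of the nonzero values over both sets were not whole, and their values are uncertain in that reads of other places or genes may share in them. They were Cenpk (71.0%), Nuf2 (63.8%), Cenpe (60.6%), Ska2 (54.2%), Ska3 (50.9%), Cenpo (48.9%), Cenpu (48.6%), Cenpp (48.1%), Mis12 (47.6%), Cenpc1 (46.1%) and Oip5 (41.9%).

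Summed over genes, the inner and outer kinetochore stood in different proportion in the 2 cell types. At 2 months the 16 inner genes summed to 321 ± 11.1 RPKM in oocytes and 99.7 ± 5.22 in cumulus cells (SD, n = 5 mice), and the 15 outer genes to 283 ± 9.29 and 169 ± 12.7. Single oocytes ranged from 244 to 377 RPKM in the inner sum and single pools from 80.8 to 129, so the cell types did not overlap. The ratio of outer to inner was 0.884 ± 0.0492 in oocytes and 1.71 ± 0.166 in cumulus cells. In oocytes of the second set the mean ratio stayed between 0.870 and 0.884 over all ages and without hyperovulation.

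In oocytes of CR mice the outer to inner ratio was 1.23 ± 0.00522 (SD, n = 3), with 1.23 to 1.24 over the mice. Middle mice lay at 0.940 ± 0.0936 (n = 4; 0.813 to 1.02), old at 0.904 ± 0.0476 and young at 0.981 ± 0.123 (n = 2 each). No other mouse of either set reached the CR values in oocytes, the next highest being a young mouse at 1.07. In CR cumulus cells the ratio was 1.74 ± 0.0372 against 1.62 ± 0.166 in middle mice, which overlapped. The members that make up this shift are given next; no test was made of the sum.

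**Figure D2:**
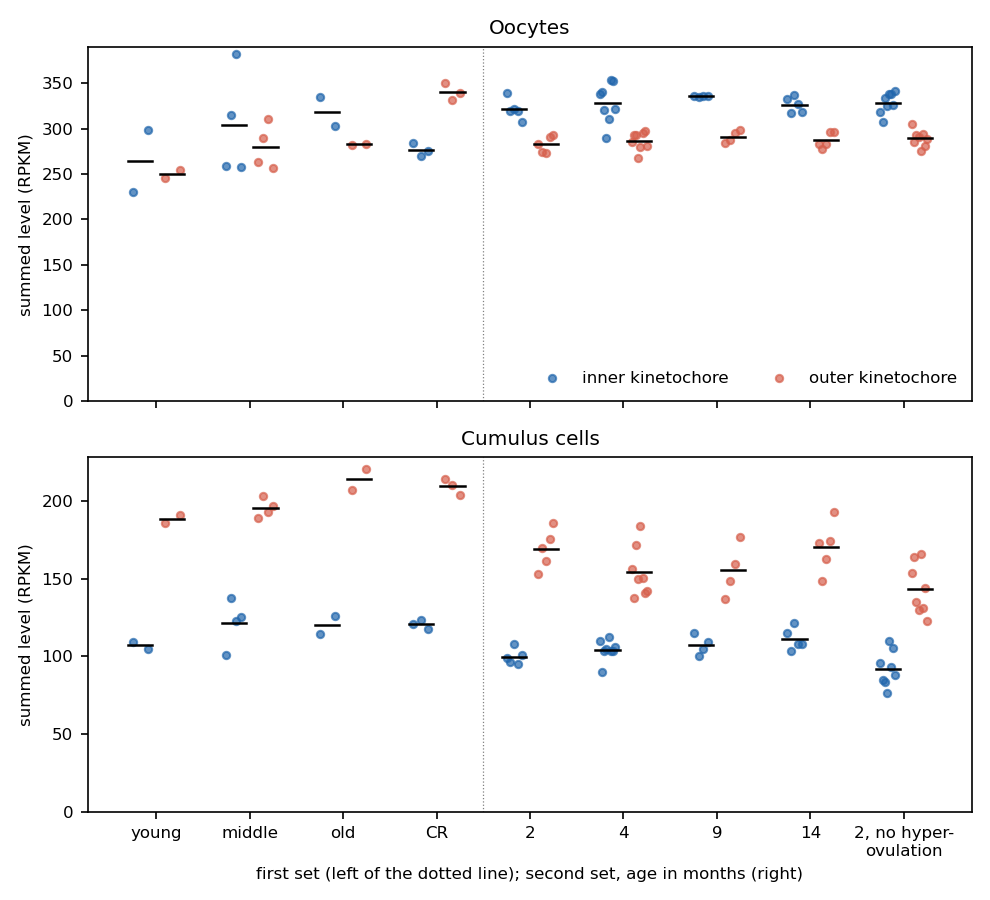
Each point is 1 mouse, the mean over its libraries of the summed level (RPKM) of the 16 inner or 15 outer kinetochore genes, in oocytes (top) and cumulus cells (bottom); black lines are group means. In oocytes the outer sum lies above the inner sum in the 3 CR mice (340 against 277 RPKM on average), whereas the inner mean is the higher in the other 8 groups.

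The comparison of CR with middle mice asks what calorie restriction changes in oocytes of the same age. It called 9 of the 35 members, 25.7%, where 7.59% of 27116 genes were called (edgeR quasi-likelihood test, 3 CR against 4 middle mice). Higher in CR were 7 members (4.06% of all genes were called higher). They were the outer genes Knl1 (log2 fold change 0.67 ± 0.12), Spc25 (0.62 ± 0.13), Ndc80 (0.57 ± 0.15), Cenpe (0.49 ± 0.10) and Cenpf (0.42 ± 0.11) and the inner genes Cenpw (0.98 ± 0.22) and Cenph (0.69 ± 0.14). Lower were 2 inner genes, Cenpm (-0.74 ± 0.13) and Cenpx (-0.92 ± 0.17), where 3.53% of all genes were called lower. All genes include many of low count. Among genes over 5 CPM, by length class, 4.51% to 11.7% were called higher and 2.67% to 14.6% lower. The study named all 7 higher members as up-regulated from the same samples, so that their count is not independent evidence of its direction. It also named Mis12, Ska3, Hjurp and Meikin, which did not pass here with mice as units (adjusted p = 0.132, 0.593, 0.306 and 0.499).

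Cenpm, a network subunit without microtubule contact (chromosome 15, 82233779 to 82244748 in GRCm38, minus strand), ranged from 33.9 to 59.1 CPM in middle oocytes (median 47.7) and from 18.7 to 35.5 in CR oocytes (median 30.2). By mouse, CR lay at 28.5 to 30.1 and middle at 42.8 to 59.1 CPM, with means of 29.2 ± 0.802 and 48.5 ± 7.32 (adjusted p = 0.00911). Single oocytes overlapped slightly and mice did not. Young mice, at 37.1 ± 7.29 CPM, lay between those means.

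Knl1, the scaffold that recruits checkpoint proteins to the outer kinetochore (chromosome 2, 119047119 to 119105501, plus strand), ranged from 32.5 to 74.3 CPM in middle oocytes (median 59.9) and from 63.4 to 133 in CR oocytes (median 99.2). Its mean per mouse was 97.9 ± 10.5 CPM in CR and 61.0 ± 6.80 in middle mice (adjusted p = 0.0103), and 57.4 ± 2.16 and 58.8 ± 2.37 in young and old. The 3 CR mice, at 88.9 to 109 CPM, stood above all other mice of the first set, the highest of which reached 70.2.

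Cenpx (chromosome 11, 120710942 to 120713738, minus strand) ranged from 46.7 to 117 CPM in middle oocytes (median 65.8) and from 19.96 to 56.7 in CR oocytes (median 35.9). Its means were 38.02 ± 5.26 CPM in CR and 71.4 ± 17.7 in middle mice (adjusted p = 0.0125). The highest CR mouse, at 44.1 CPM, lay close to the lower of the 2 young mice, at 45.7.

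Cenph, of the CENP-H/I/K group (chromosome 13, 100759674 to 100775899, minus strand), ranged from 13.8 to 47.2 CPM in middle oocytes (median 22.5) and from 30.1 to 56.2 in CR oocytes (median 38.1). Its means were 39.4 ± 1.76 CPM in CR and 23.8 ± 3.57 in middle mice (adjusted p = 0.0176). The CR mice lay between 37.6 and 41.1 CPM and the highest other mouse of the first set reached 28.9.

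**Figure D3:**
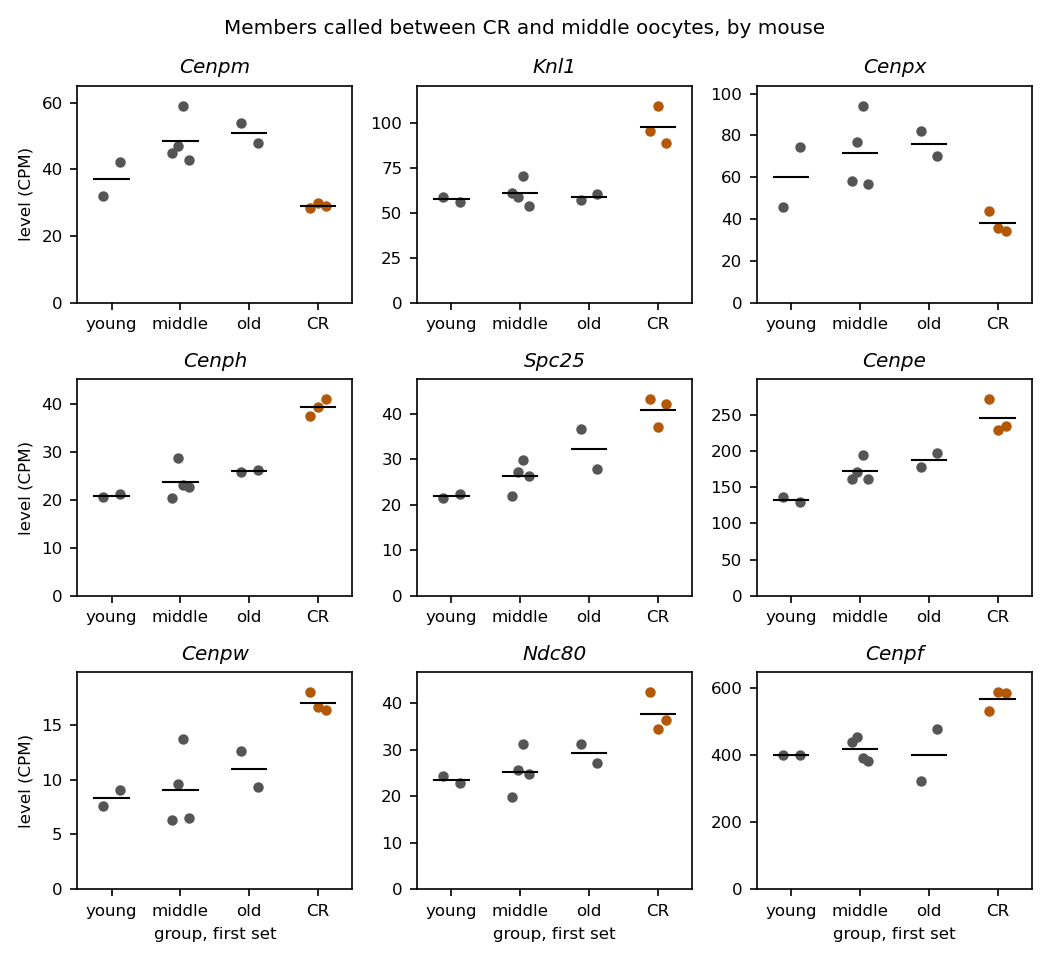
Each point is 1 mouse label of the first set (level in CPM, from counts summed over its oocytes) for the 9 members called between CR and middle oocytes; black lines are group means. In all 9 panels the 3 CR mice (orange) lie outside the range of the 4 middle mice, above it for 7 genes and below it for Cenpm and Cenpx.

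Mice did not overlap between CR and middle oocytes for 12 of the 35 members, the 9 called and Mis12, Spc24 and Zwint. That was 34.3% of the members, beside 22.6% of all genes tested whose mice did not overlap and the 7.59% called. Nuf2, the partner of NDC80, had a log2 fold change of 0.49 ± 0.16 (adjusted p = 0.0981), and Spc24, the partner of SPC25, 0.40 ± 0.14 (adjusted p = 0.111). The 4 subunits of the NDC80 complex thus lay between 0.40 and 0.62 on the log2 scale, of which Ndc80 and Spc25 passed the test. The MIS12 complex held no called member, with Mis12 at 0.27 ± 0.10 (adjusted p = 0.132), Dsn1 at 0.11 ± 0.10, Nsl1 at 0.36 ± 0.28 and Pmf1 at -0.04 ± 0.12. The median log2 fold change was 0.36 over the 15 outer genes, 0.09 over the 16 inner genes and 0.21 over the 4 loading and meiotic genes, against -0.01 over all genes.

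Partner genes moved in both directions. Of 21, Zwilch (0.61 ± 0.11), of the RZZ complex, and Sgo1 (0.52 ± 0.13), which protects cohesin, were higher in CR oocytes, and Aurkb (-0.77 ± 0.14) and Cdca8 (-0.49 ± 0.12), the kinase and a subunit of the chromosomal passenger complex, were lower. Of 15 genes of proliferation, Prc1 (0.69 ± 0.10) and Top2a (0.53 ± 0.13) were higher and Rrm2 (-0.55 ± 0.11) was lower.

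The fold changes between CR and middle oocytes moved with gene length. Among all genes over 5 CPM, the median log2 fold change was -0.19 under 1 kb, -0.17 at 1 to 2 kb and 0.13 over 6 kb. Over 6 kb 11.7% of genes were called higher and 2.67% lower, and at 1 to 2 kb 5.93% and 14.6%. The shortest members, Cenpx (1077 bases) and Cenpm (1201 bases), were lower, and all 6 members of 6 kb or more had positive values (median 0.46, 0.12 to 0.67). Knl1 (8542 bases), Cenpe (8620) and Cenpf (15433) were the called members over 6 kb. The 4 other called members were Cenph (1784 bases), Ndc80 (2201), Spc25 (3188) and Cenpw (4211). They lay above the medians of their length classes, which ran from -0.17 to 0.04. Having been picked as called higher, they could hardly lie elsewhere. Over all members the median was 0.15 under 3 kb and 0.10 at 3 to 6 kb. For Ndc80, 2201 bases is the length recovered from the deposited values. Its exons in GENCODE vM21 cover 6493 bases, which would place it in the class over 6 kb. The correction for gene length given next used 2201 bases.

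With each mouse's counts corrected for the trend with gene length, 4 members remained higher and 2 lower. Cenph (0.80 ± 0.13, adjusted p = 0.00730), Spc25 (0.64 ± 0.13, 0.0181), Ndc80 (0.66 ± 0.14, 0.0205) and Cenpw (0.94 ± 0.24, 0.0402) kept their call, as did Cenpm (-0.60 ± 0.12, 0.0137) and Cenpx (-0.77 ± 0.15, 0.0135). Knl1 (0.52 ± 0.15, 0.0542), Cenpe (0.34 ± 0.14, 0.179) and Cenpf (0.22 ± 0.11, 0.272) lost it. The outer to inner ratio rested on the short inner genes as well. Without Cenpm and Cenpx, left out after their values were seen, it was 1.57 ± 0.0178 in CR and 1.44 ± 0.134 in middle oocytes, and the mice overlapped (1.55 to 1.59 against 1.26 to 1.57).

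**Figure D4:**
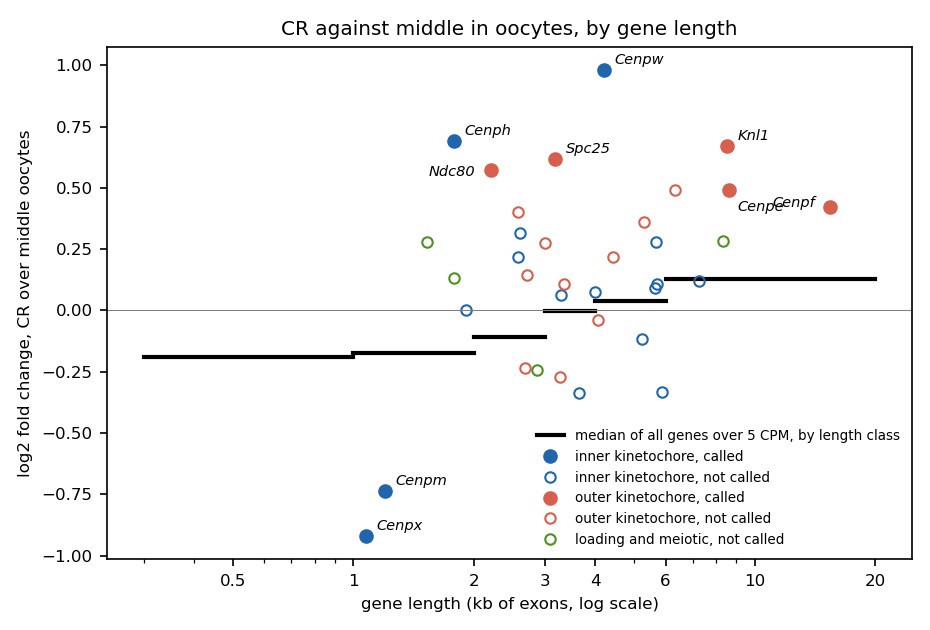
Each circle is a member, by gene length (kb of exons, log scale) and log2 fold change of CR over middle oocytes; filled circles passed the test, and black bars are medians of all genes over 5 CPM by length class. The bars rise from -0.19 to 0.13, with Cenpx and Cenpm at the lower left and Knl1, Cenpe and Cenpf at the upper right.

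The CR call rested on few mice. Leaving out single mice gave 2 to 9 members higher and 0 to 2 lower. Of all genes, the same fits called from 684 of 25601 without CR3 to 3414 of 27047 without Middle3. Without CR2 or without CR3, 2 were higher and none lower, and without CR1 2 and 2. Without Middle1 the counts were 4 and 2, without Middle2 2 and 1, without Middle3 9 and 2, and without Middle4 3 and 2. Middle3 was represented by 1 oocyte once the cumulus-like complex, which came from that mouse, was left out. With the cumulus-like complex kept in, no member and only 4 genes were called. Cumulus markers in oocytes stood at a median of 3.51% of their level in cumulus cells in CR and 3.77% in middle oocytes, with medians by mouse of 3.38% to 3.85% and of 2.76% to 6.08%, and their part in the result was not tested. The depth difference given above goes with diet, and its part cannot be told apart.

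Sequences before the start sites of the called members are shown for those called higher with CR. Start sites of 31 of the 35 members were found in RefSeq (GRCm38.p6) as windows of 300 bases, from 250 before to 50 after the start. The cell cycle genes homology region (CHR, searched as TTTGAA on both strands) is a known element of promoters of genes expressed at G2 and M phase, often beside CCAAT boxes (searched as CCAAT on both strands). Below are 130 bases of 5 of the 7 members called higher, from 100 before the start, 5′ to 3′ in the direction of the gene, with capitals for both motifs on either strand. In Cenpw they overlap by 1 base.
Cenpf (chr1:189688057-189688186, minus strand): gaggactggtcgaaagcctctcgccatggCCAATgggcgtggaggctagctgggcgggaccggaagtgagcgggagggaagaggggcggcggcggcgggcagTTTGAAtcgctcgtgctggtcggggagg
Spc25 (chr2:69206184-69206313, minus strand): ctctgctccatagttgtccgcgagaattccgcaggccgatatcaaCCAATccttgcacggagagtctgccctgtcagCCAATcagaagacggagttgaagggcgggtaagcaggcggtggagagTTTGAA
Cenpw (chr10:30200511-30200640, minus strand): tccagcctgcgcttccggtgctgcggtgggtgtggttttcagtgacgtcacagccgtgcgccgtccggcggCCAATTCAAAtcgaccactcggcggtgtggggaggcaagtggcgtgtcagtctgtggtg
Cenph (chr13:100775870-100775999, minus strand): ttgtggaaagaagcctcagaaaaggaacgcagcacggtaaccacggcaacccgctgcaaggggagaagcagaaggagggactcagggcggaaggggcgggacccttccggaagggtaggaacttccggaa
Cenpe (chr3:135212463-135212592, plus strand): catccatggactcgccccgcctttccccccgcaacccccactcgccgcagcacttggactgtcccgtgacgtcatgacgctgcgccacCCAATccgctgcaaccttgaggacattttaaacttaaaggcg

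Cenpf, Spc25 and Cenpw hold TTTGAA or its complement in the stretch shown, 2 and 24 bases after and 25 bases before the start, and Ndc80 and Knl1 hold it 29 and 31 bases after the start. It occurred in 5 of the 7 windows of members called higher and in neither of the 2 called lower. It was found in 12 of the 31 windows of members (38.7%) and in 17.9% of all 32851 promoter windows of the same length. Within 50 bases of the start it was in 10 of 31 (32.3%) and in 4.94% of all. CCAAT was in 21 of the 31 windows (67.7%) and in 37.4% of all. It was in 5 of the 7 windows of members called higher and in 2 of the 2 called lower. No link of either motif to the direction of change was tested. By group, 6 of 12 outer and 4 of 16 inner windows held TTTGAA. Its absence from a window says only that these letters are not there, and nothing in these data measured binding.

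In cumulus cells the same comparison of CR with middle mice called no member, nor any of 26542 genes (0%), with edgeR; 2 of 34 members and 2117 genes had an unadjusted p under 0.05, and DESeq2 called no member. Meikin did not pass the filter on low counts there. The smallest p-values were those of Cenps at 0.92 (unadjusted p = 0.0066, adjusted p = 0.436) and Mis12 at 0.45 (0.0067, adjusted p = 0.436). The median was 0.06 for outer and -0.06 for inner genes, and standard errors lay between 0.12 and 0.36.

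A test of the difference between the cell types in the response to CR (interaction term, 32662 genes, of which 0.0918% were called) called no member with edgeR, and 7 members and 3329 genes had an unadjusted p under 0.05. The median over all genes was 0.20, by which values of this contrast are shifted. Spc25 (0.95), Knl1 (0.86), Cenpw (1.039), Ndc80 (0.82), Cenpe (0.78), Cenpf (0.79) and Hjurp (0.83) were the 7, with adjusted p between 0.267 and 0.473. Members of 6 kb or more had a median of 0.78, beside 0.41 for all genes over 6 kb. A response of these genes particular to oocytes was therefore not shown at this number of mice.

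In no comparison of ages did a member pass the test. In oocytes at 14 against 2 months (5 mice each), edgeR called none of 35 members and 0.172% of 24485 genes, 1 member (Cenpp, 0.21) had an unadjusted p under 0.05, and DESeq2 called none. The members' log2 fold changes lay between -0.21 and 0.23, with standard errors of 0.046 to 0.24. Over 2, 4, 9 and 14 months together (0.155% of 27175 genes called) no member was called and none had an unadjusted p under 0.05; the highest of the 4 means exceeded the lowest by 1.037 to 1.27 times (median 1.09). The first set's old and young oocytes (2 mouse labels each) differed in no called gene of 24867 (0%) with edgeR, and DESeq2 called 37 genes and no member. There 3 members had an unadjusted p under 0.05, Cenpq (0.70), Spc25 (0.51) and Hjurp (-0.60), with standard errors over members of 0.21 to 0.48, so that only large differences were detectable.

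Beside the first set's values for age, cumulus markers in old oocytes stood at a median of 5.60% of their cumulus level and at 2.92% in young oocytes. The part of these transcripts in the members' values was not tested. In the second set the same share was 3.58% at 14 months and 3.18% at 2 months.

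In cumulus cells age gave no call either. At 14 against 2 months edgeR called none of 34 members, where 0.158% of 24690 genes were called, with no unadjusted p under 0.05, and DESeq2 called none. Inner genes had a median of 0.12 and outer genes of 0.02. Over the 4 ages (0.464% of 28471 genes called) none was called or had an unadjusted p under 0.05, and the highest mean exceeded the lowest by 1.02 to 1.54 times, the most in Cenpw. Between old and young mice of the first set (0.431% of 24846 genes called) none was called by edgeR or DESeq2, and 7 members had an unadjusted p under 0.05, all higher in old mice: Cenpf (0.41), Spc25 (0.47), Cenpa (0.46), Ska2 (0.50), Nuf2 (0.42), Cenpk (0.61) and Cenpe (0.30), with adjusted p of 0.315 or more. For those genes the same fit at 14 against 2 months in the second set gave values from -0.19 for Spc25 to 0.40 for Cenpk.

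Hyperovulation was compared at 2 months, 8 mice without against 5 with it. In oocytes edgeR called none of 35 members and none of 25338 genes (0%), with 1 member (Cenpe, 0.12) and 1060 genes at an unadjusted p under 0.05, and DESeq2 called no gene. Standard errors lay between 0.038 and 0.23 and all members between -0.17 and 0.27 on the log2 scale. In cumulus cells none of 34 members was called by edgeR, where 0.856% of 26063 genes were called. There 27 of 34 values were negative without hyperovulation, with a median of -0.31 for outer, -0.12 for inner and 0.02 for all genes. The 5 with an unadjusted p under 0.05 were Knl1 (-0.46), Cenpo (-0.45), Ska2 (-0.56), Pmf1 (-0.52) and Spc25 (-0.52), with adjusted p of 0.116 or more; DESeq2 called 1 member.

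Sums of 2 marker lists moved with that comparison in cumulus cells. The 15 proliferation genes, of which edgeR called none and DESeq2 called 3 lower, summed to 2255 ± 437 CPM without hyperovulation and 3010 ± 293 with it (SD, n = 8 and 5), with a median log2 fold change of -0.42. The 10 cumulus markers summed to 6455 ± 1362 and 8920 ± 1302 CPM. Their part in the members' values was not tested. The difference between oocytes and cumulus cells in this response (0.146% of 32143 genes called) reached an unadjusted p under 0.05 for Knl1 (0.57), Cenpo (0.39), Pmf1 (0.52) and Spc25 (0.49) and was called by edgeR for no member.

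**Figure D5:**
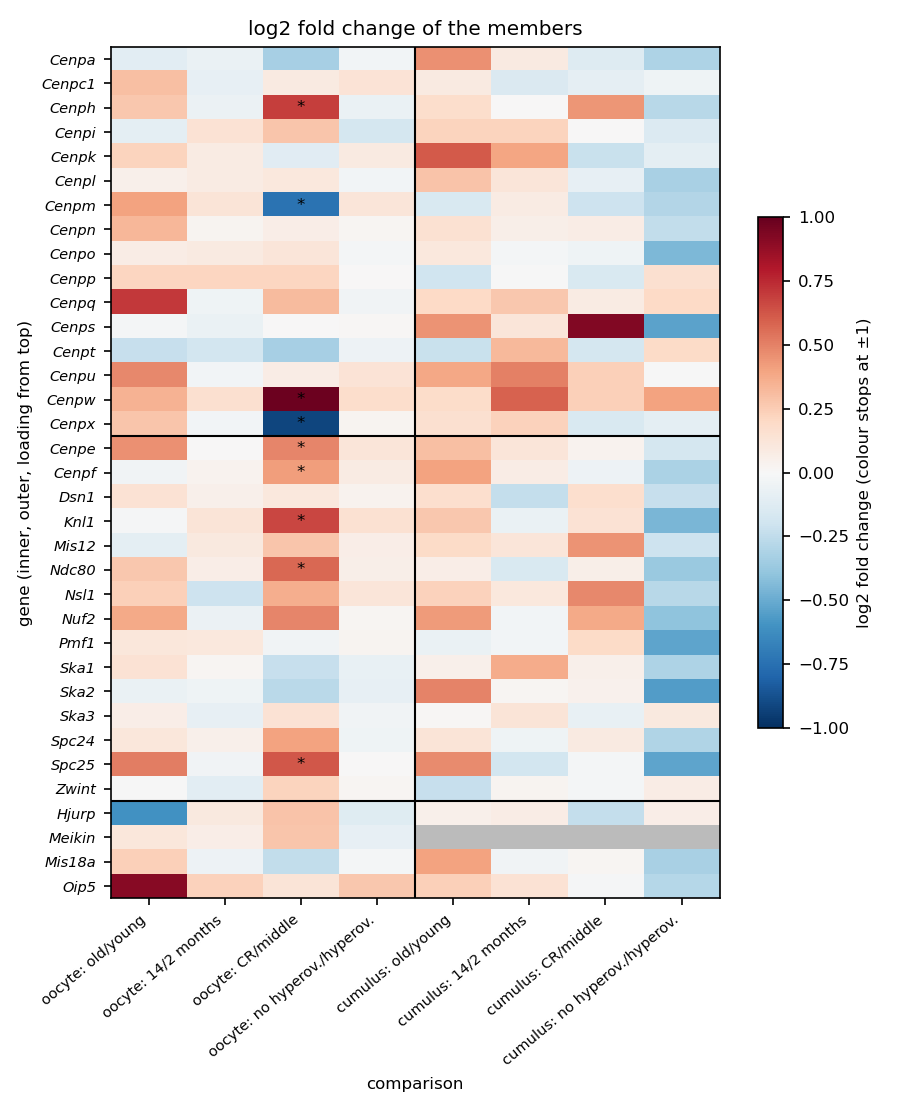
Rows are the 35 members (inner, outer and loading genes from the top) and columns are 4 comparisons in oocytes and the same in cumulus cells; colour gives the log2 fold change and stars mark an adjusted p under 0.05. All 9 stars stand in the column of CR against middle oocytes, grey marks Meikin where it did not pass the filter, and the columns of 14 against 2 months and of hyperovulation in oocytes are the palest, within -0.21 to 0.27.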

How the data were processed

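RamDA-seq libraries of single mouse oocytes and of their cumulus pools were analysed, 146 in a first and 255 in a second set. Reads had been trimmed (Fastq-mcf), aligned to GRCm38 by HISAT2 2.0.5 and assigned to GENCODE genes by featureCounts 1.5.1, with multi-mapped reads included by the authors. The deposited values hold fractions and were handled here like estimated counts, of which 36.8% and 35.1% of the nonzero values were not whole in the first and second set; these were rounded after summing, although the design had assumed plain counts. The authors also deposited RPKM values, used here only with the counts of the libraries of mice fed ad libitum to recover gene lengths. For Ndc80 and Cenpm the recovered lengths (2201 and 1201 bases) are shorter than their exons in GENCODE vM21 (6493 and 1617 bases). The RPKM levels in the text were recomputed from counts. Gene names and coordinates were taken from GENCODE vM21 and promoters from RefSeq (GRCm38.p6). In 4 members no promoter window was found. Ages, diets and mice were taken from the sample labels.

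Counts were summed per mouse label, because oocytes of 1 mouse are not independent, whereas the study compared libraries. Tests used R 4.3.3 with edgeR 4.0.16 (TMM, quasi-likelihood F test) on genes detected in no fewer than 5 of the libraries under comparison, with Benjamini-Hochberg adjustment over all genes and a threshold of 0.05. CPM was scaled by TMM within each set and cell type. DESeq2 1.42.0 and the other alternatives are given in the closing section. The test was also run on simulated data for CR against middle oocytes only, which is not used as support for any result. Nothing says that replicates were handled apart beyond the mouse label, so p-values measure the spread between these mice. For oocytes against cumulus cells the animals are shared: deviations of the paired samples of the 5 mice from their group means correlated at 0.018 to 0.176. Genes were named by rule: each called member where at most 12 were called, otherwise the 12 with the smallest p, full values for the 4 smallest p, and the 3 highest and lowest levels at 2 months. The members and lists were chosen with earlier results of these data known.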

Additional observations from a re-analysis of the deposited data

Results flagged for a closer look

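Mice were compared within groups of 4, 5 or 8 for the summed levels of the inner, outer and loading genes and for the 9 members called with CR, in 45 group and measure combinations, and 2 held a mouse far from the others by Dixon's criterion. Chance alone marks about 1 in 20. In cumulus cells at 4 months, 1 of 8 mice had a summed inner kinetochore level of 89.8 RPKM, with the other mice between 103 and 113. In oocytes at 4 months, another of the 8 mice had a summed level of the 4 loading and meiotic genes of 113 RPKM, with the others between 88.6 and 94.3.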

How the results depend on the processing

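For CR against middle oocytes, the 7 members higher and 2 lower became 17 and 6 with libraries as units. That was the study's choice, in which oocytes of 1 mouse count separately, and here it called 7525 of 27116 genes. The correction for gene length gave 4 higher and 2 lower (1949 of 27116 genes called), and all deposited libraries gave 0 and 0 (4 of 27257). Leaving out single mice gave 2 to 9 higher and 0 to 2 lower. The highest adjusted p over the alternatives was 0.272 (Cenpf), and no called member changed sign. With libraries as units, the counts of 0 members in other comparisons changed as follows. Brackets give the number of all genes called in either direction, of those tested. Old against young gave 4 higher in oocytes (1613 of 24867) and 4 higher in cumulus cells (896 of 24846). CR cumulus cells gave 2 higher (877 of 26542), and cumulus cells without hyperovulation gave 6 lower (3063 of 26063). Age in cumulus cells gave 2 (1620 of 28471). The difference in CR response gave 4 higher and 3 lower (3821 of 32662), and that in the response to hyperovulation 4 higher (1189 of 32143). In cumulus cells without hyperovulation, 1 member was lower with DESeq2 (717 of 15818). With the B1 or B2 code of the complexes as a covariate, 1 was lower there (611 of 26063). In cumulus cells of old mice, 1 was higher with no filter on low counts (693 of 32475). For old against young, leaving out a single mouse label leaves 1 label alone in its group, which is then assumed to vary like the others. Counts of members from those fits are not given for that reason. The causes were not tested.

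For oocytes against cumulus cells at 2 months, Pmf1 changed sign to 0.209 in mice without hyperovulation. The replicate block by mouse gave 24 members higher and 9 lower, gaining Cenpa and losing Zwint, and called no member in either test of a difference in response; leaving out single mice gave 22 to 23 higher and 6 to 8 lower. Over 10 alternatives the calls held in 4 for Cenpw, 5 for Spc25 and for Zwint, 7 for Pmf1, 8 for Hjurp and 9 for Ndc80 and for Knl1, and in all 10 for the other called members. The gene length correction of this comparison was chosen after seeing the data. Of all alternative counts of members, 207 stayed within 1.5 times the main count and 27 did not. Depth limits members such as Nsl1 and Oip5, with about 6.22 and 6.35 counts per oocyte.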
